A study of Mus musculus with 24 samples.

Results

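The genes of the vascular endothelial growth factor (VEGF) system, 5 for ligands (Vegfa, Vegfb, Vegfc, Vegfd and Pgf), 3 for receptors (Flt1, Kdr and Flt4) and 2 for neuropilins (Nrp1 and Nrp2), were picked by symbol. They are 10 of the 29020 genes in a table of total RNA sequencing of mesenteric arteries, the small arteries that supply the gut. All 10 were found, all are protein-coding, and all 10 passed the filter on low values (a normalized value of at least 1 in at least 6 of the 24 libraries) that left 14544 genes for testing. The arteries, cleared of fat and veins, came from 24 male mice, 6 in each of 4 groups: ieET-1 long term, ieCre long term, ieET-1 short term and ieCre short term. Both genotypes carry a tamoxifen-inducible Cre recombinase under the endothelial Tie2 promoter, which is also known to be active in some blood cells. The ieET-1 mice in addition overexpress endothelin-1, a vasoconstrictor peptide, after induction. Every mouse, controls included, received tamoxifen at 1 mg/kg/day for 5 days from an age of 10 to 12 weeks. Short term means 16 days and long term 3 months after tamoxifen, so the long-term mice were also older. Each library is 1 mouse and no mouse was sampled at both times.

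VEGFs are secreted ligands that act on receptor tyrosine kinases of blood and lymphatic endothelium. VEGFA, VEGFB and placental growth factor bind the receptor encoded by Flt1, and VEGFA also signals through the receptor encoded by Kdr, the main receptor of vessel growth. VEGFC and VEGFD act chiefly on the receptor encoded by Flt4, which maintains lymphatic vessels. The neuropilins, encoded by Nrp1 and Nrp2, have no kinase domain and serve as co-receptors of VEGFs and of class 3 semaphorins. In an adult artery these genes are known for endothelial survival, permeability and nitric oxide release.

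The series title concerns Vegfa splice isoforms and the RNA-binding protein gene Khdrbs3. The table holds 1 row per gene, so isoforms were not analysed here, and the question addressed is whether the genes of the VEGF system differ by genotype or by time at the gene level. Values are read counts scaled to a common effective library size, called normalized values below.

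Libraries held between 9635250 and 16181605 reads on genes, with a median of 13017255. Gm42418, which shares sequence with ribosomal RNA, took over 10% of the reads of 4 libraries. They were mice 8135 and 8136 (ieET-1 long term), 9491 (ieCre long term) and 9955 (ieCre short term). Smooth muscle markers were abundant in every library, with a summed value of 9247 to 21486 over 8 genes, and the 14 endothelial markers summed to between 2520 and 5205. Pancreatic acinar markers, which arteries should lack, summed to between 93.8 and 58148 over 8 genes. The transgene encodes the human peptide, so the mouse Edn1 row checks the genotype labels only as far as human reads align there. Edn1 averaged 31.6 ± 4.48 in ieET-1 and 32.0 ± 4.73 in ieCre arteries at the long term, and 43.9 ± 5.16 in ieET-1 and 35.9 ± 6.41 in ieCre arteries at the short term (SD, n = 6 each), and neither difference passed (limma, adjusted p = 0.999 at the long term and 0.486 at the short term).

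Per kilobase of exon, averaged over the 24 libraries, Vegfd was the most abundant of the 10 transcripts with a normalized value of 20.3 ± 4.01 (SD), followed by Vegfc at 19.8 ± 2.47, Nrp1 at 18.1 ± 3.41 and Vegfa at 15.6 ± 2.52. The lymphatic receptor gene Flt4 stood at 8.81 ± 2.80 per kilobase. Kdr followed at 5.20 ± 1.33, then Pgf at 4.15 ± 0.81, Flt1 at 4.07 ± 1.12, Nrp2 at 4.04 ± 1.03 and Vegfb at 3.54 ± 0.95. The order differed between groups. Nrp1 led in ieET-1 long-term arteries, before Vegfc and Vegfd, Vegfc led in ieCre long-term arteries, before Vegfd and Nrp1, and Vegfd led in both short-term groups, before Vegfc and Nrp1. Vegfa, Flt4 and Kdr followed in that order in each group, and the lowest mean was that of Vegfb in both ieET-1 groups, of Flt1 in ieCre long-term and of Nrp2 in ieCre short-term arteries. Only some of these steps were larger than the spread between libraries. Vegfa lay above Flt4, and Flt4 above Kdr, in 24 of 24 libraries, and Kdr lay above Pgf in 21. Vegfd exceeded Vegfc in 12 of 24 libraries, Pgf exceeded Flt1 in 15 and Flt1 exceeded Nrp2 in 13, so these neighbours had no fixed order. Exon lengths were taken from GENCODE gene models, which merge all isoforms, so a level per kilobase understates a gene that uses few of its exons.

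**Figure D1:**
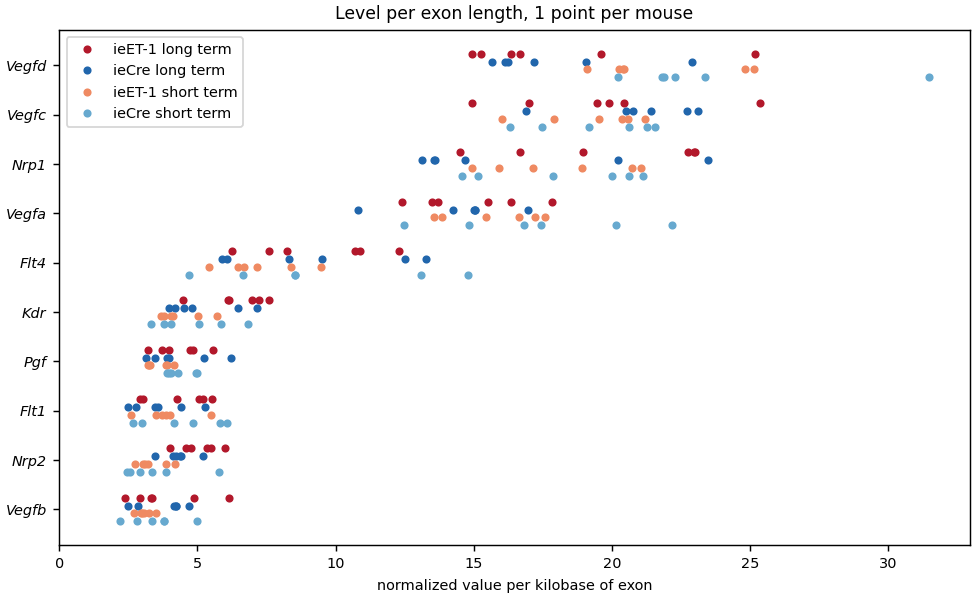
Normalized value per kilobase of exon (horizontal axis, scaled reads per kilobase) for the 10 genes, 1 point per mouse, in 4 rows of points per gene for ieET-1 long term, ieCre long term, ieET-1 short term and ieCre short term. Vegfd, Vegfc, Nrp1 and Vegfa form an upper set with means of 15.6 to 20.3, Flt4 averages 8.81, and the other 5 genes lie between 3.54 and 5.20.

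The first comparison asked whether endothelin-1 overexpression was accompanied by another level of the VEGF system genes. At the long term none of the 10 genes passed (limma, adjusted p = 0.999 for each), against 0.00688% of all tested genes. None passed at the short term either (lowest adjusted p = 0.538, for Pgf), against 0.0825% of all tested genes. Neither comparison had a VEGF system gene with an unadjusted p under 0.05 (0 of 10 each). Of all tested genes 2.99% had one at the long term and 9.91% at the short term. On recovered reads edgeR and DESeq2 called 0 of 10 in both comparisons. The median log2 difference over the 10 genes was 0.04 at the long term, with 7 genes higher in ieET-1 arteries, and -0.11 at the short term, with all 10 lower in ieET-1 arteries. The medians over all tested genes were -0.01 at both times. Those directions depended on the setting. With reads scaled without Gm42418 and mitochondrial genes, 4 genes were higher at the long term and 7 were lower at the short term (medians of -0.06 and -0.03). That scaling also moved the medians of all tested genes, to -0.10 at the long term and 0.06 at the short term. With the animal ID range, described further on, as a term the counts were the same, 4 and 7 (medians of -0.07 at both times). Without the 4 libraries high in Gm42418 they were 5 and 7 (medians of -0.01 and -0.04). At the short term 12 of 14 endothelial and 8 of 8 smooth muscle markers were also lower in ieET-1 arteries, by a median of -0.14 and -0.45 with none of them passing, and their part in the result was not tested. In whole arteries fewer cells of a type and less RNA per cell cannot be told apart.

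**Figure D2:**
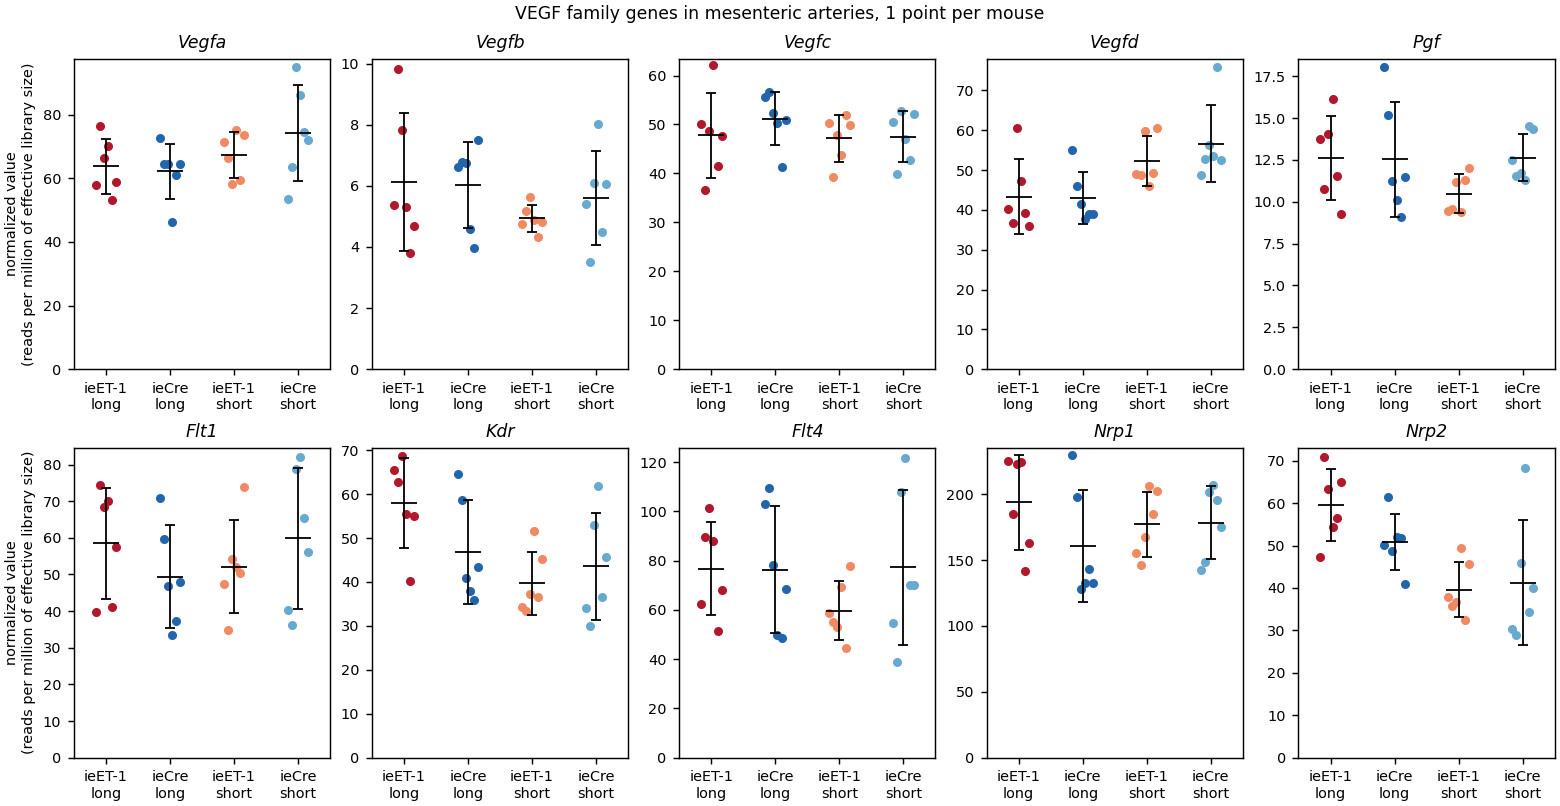
Normalized value (vertical axis, scaled reads, starting at 0) of each of the 10 genes in ieET-1 long term, ieCre long term, ieET-1 short term and ieCre short term arteries. Points are mice, and bars are the mean and SD of 6 mice. Groups overlap in all 10 panels for both genotype comparisons, and Nrp2 and Kdr sit highest in the ieET-1 long-term arteries.

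Vegfa encodes the principal growth factor of blood vessels. It lies on the minus strand of chromosome 17 (chr17:46016993-46032369, GRCm38, ENSMUSG00000023951). Its normalized value ran from 53.1 over a median of 62.5 to 76.4 in ieET-1 long-term arteries and from 46.3 over 64.4 to 72.7 in ieCre long-term arteries. Short-term values ran from 58.2 over 68.8 to 75.3 in ieET-1 and from 53.4 over 73.4 to 95.03 in ieCre arteries. The groups overlapped almost fully, and the highest values of all, 95.03 and 86.3, belonged to the ieCre short-term mice 8754 and 9955. The log2 difference between ieET-1 and ieCre was 0.04 at the long term (95% interval -0.22 to 0.29) and -0.12 at the short term (-0.38 to 0.14). These intervals leave room for gene-level differences of up to 1.23-fold at the long term and down to 0.77-fold at the short term.

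Vegfb, whose product binds FLT1 and is known for a part in fatty acid handling, had the lowest mean over the 24 libraries of the 10 genes, as a normalized value and per kilobase (chr19:6982473-6987651, minus strand, ENSMUSG00000024962). It averaged 6.14 ± 2.26 in ieET-1 and 6.04 ± 1.41 in ieCre arteries at the long term, and 4.94 ± 0.44 in ieET-1 and 5.60 ± 1.55 in ieCre arteries at the short term (SD, n = 6 each). Between 48 and 100 reads stood behind each of these values, which limits their precision. The single highest library was mouse 8135 of ieET-1 long term at 9.84, and the ieET-1 short-term mice were closest together, between 4.32 and 5.62. Its log2 difference between genotypes was -0.01 at the long term (95% interval -0.38 to 0.36) and -0.12 at the short term (-0.49 to 0.25).

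Placental growth factor, encoded by Pgf (chr12:85166635-85177790, minus strand, ENSMUSG00000004791), binds FLT1 and is known for vessel growth under stress. In long-term arteries its value ran from 9.29 over 12.6 to 16.1 in ieET-1 and from 9.08 over 11.4 to 18.1 in ieCre mice. In short-term arteries it ran from 9.37 over 10.4 to 12.0 in ieET-1 and from 11.3 over 12.1 to 14.5 in ieCre mice. All 6 of those ieCre values lay above the ieET-1 median, yet the groups overlapped. No other gene of the 10 had a smaller p in that comparison, with a log2 difference of -0.25 (limma, SE 0.14, 95% interval -0.54 to 0.04, adjusted p = 0.538). The long-term difference was 0.02 (95% interval -0.27 to 0.31).

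The lymphatic ligand gene Vegfc (chr8:54077606-54187096, plus strand, ENSMUSG00000031520) varied least. It averaged 47.8 ± 8.66 in ieET-1 and 51.2 ± 5.46 in ieCre arteries at the long term, against 47.2 ± 4.79 in ieET-1 and 47.5 ± 5.26 in ieCre arteries at the short term (SD, n = 6 each). The highest library was only 1.70-fold above the lowest, the smallest such ratio among the 10 genes. Differences between genotypes were -0.11 at the long term (95% interval -0.33 to 0.11) and -0.01 at the short term (-0.23 to 0.21), the narrowest intervals of the set.

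Vegfd (chrX:164373378-164402650, plus strand, ENSMUSG00000031380), the other lymphatic ligand gene, differed more by time than by genotype. It ran from 36.0 over 39.7 to 60.6 in ieET-1 and from 37.7 over 40.2 to 55.1 in ieCre arteries at the long term, and from 46.0 over 49.2 to 60.6 in ieET-1 and from 48.7 over 53.2 to 75.8 in ieCre arteries at the short term. All 6 short-term mice of each genotype lay above the long-term median of that genotype, while 1 long-term mouse of each lay above the short-term median. The log2 difference of long against short term was -0.28 in ieET-1 (limma, SE 0.12, adjusted p = 0.157) and -0.39 in ieCre arteries (SE 0.12, adjusted p = 0.0901), and neither passed. In ieCre arteries it passed under DESeq2 (adjusted p = 0.0465), with library weights (0.00815) and without mouse 8088 (0.0363), and its adjusted p reached up to 0.159 under the 12 other settings. In ieET-1 arteries it passed under 1 of the 12 other settings, reads scaled without Gm42418 and mitochondrial genes (-0.44, adjusted p = 0.0336), and ranged up to 0.251. Between genotypes the difference was 0.00 at the long term with a 95% interval of -0.26 to 0.26, and -0.11 at the short term with an interval of -0.36 to 0.15.

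Flt1 encodes a receptor with high affinity for VEGFA and weak kinase activity, whose soluble form is known as a ligand trap (chr5:147561604-147726011, minus strand, ENSMUSG00000029648). Its value ran from 39.6 over 62.9 to 74.5 in ieET-1 and from 33.4 over 47.4 to 71.0 in ieCre arteries at the long term. Short-term values ran from 34.9 over 51.2 to 74.0 in ieET-1 and from 36.1 over 60.9 to 82.2 in ieCre arteries. High and low libraries occurred in every group. The log2 difference between genotypes was 0.24 at the long term (95% interval -0.21 to 0.69) and -0.16 at the short term (-0.61 to 0.29).

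Flt4 (chr11:49609263-49652739, plus strand, ENSMUSG00000020357) had the widest spread of the 10, with a 3.15-fold range between libraries. It averaged 76.8 ± 19.1 in ieET-1 and 76.3 ± 25.9 in ieCre arteries at the long term, and 59.7 ± 12.0 in ieET-1 and 77.2 ± 31.6 in ieCre arteries at the short term (SD, n = 6 each). The lowest and the highest of the 24 libraries were both in the ieCre short-term group, 38.7 in mouse 10 and 122 in mouse 9955. Its short-term difference of -0.29 had a 95% interval of -0.79 to 0.21, and its long-term difference of 0.04 one of -0.46 to 0.54, the widest intervals of the set.

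Kdr encodes the receptor through which VEGFA drives endothelial proliferation and permeability (chr5:75932827-75978458, minus strand, ENSMUSG00000062960). In ieET-1 long-term arteries the 6 values ran from 40.3 over 59.1 to 68.6, against 35.8 over 42.1 to 64.6 in ieCre long-term arteries. In ieET-1 short-term arteries they ran from 33.3 over 36.9 to 51.5, against 30.1 over 41.1 to 61.8 in ieCre short-term arteries. At the long term 5 of 6 ieET-1 mice lay above the ieCre median, with 2 above every ieCre mouse. The difference of 0.32 did not pass (limma, SE 0.17, 95% interval -0.04 to 0.67, adjusted p = 0.999), and the short-term one was -0.10 (95% interval -0.46 to 0.25).

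Nrp1, the most heavily sequenced gene of the set with at least 1132 reads a library, encodes a co-receptor that presents VEGFA to KDR (chr8:128358604-128503363, plus strand, ENSMUSG00000025810). The microRNA gene Mir1903 overlaps one of its exons on the same strand, and reads from the overlap cannot be assigned to one or the other. The values of Nrp1 ran from 141.98 over 204 to 225 in ieET-1 and from 128 over 138 to 230 in ieCre arteries at the long term. Short-term values ran from 146 over 176 to 206 in ieET-1 and from 143 over 185 to 207 in ieCre arteries. All 6 ieET-1 long-term mice lay above the ieCre long-term median, but the highest mouse of both groups was an ieCre mouse, 8088. The log2 difference was 0.28 at the long term (limma, SE 0.15, 95% interval -0.03 to 0.59, adjusted p = 0.999) and -0.01 at the short term (95% interval -0.32 to 0.30).

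Nrp2 encodes the co-receptor of VEGFC and VEGFD in lymphatic and venous endothelium (chr1:62703285-62818695, plus strand, ENSMUSG00000025969). Its values in long-term arteries ran from 47.2 over 59.9 to 70.8 in ieET-1 and from 40.9 over 50.9 to 61.5 in ieCre mice. Those in short-term arteries ran from 32.4 over 37.3 to 49.4 in ieET-1 and from 28.8 over 37.2 to 68.3 in ieCre mice. Between genotypes, 3 ieET-1 long-term mice exceeded every ieCre long-term mouse, and the difference of 0.22 did not pass (limma, SE 0.16, 95% interval -0.10 to 0.55, adjusted p = 0.999). The short-term difference was -0.01 (95% interval -0.33 to 0.32).

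Whether the genotype difference itself changed with time was asked by the genotype by time interaction. None of the 10 genes passed (limma, lowest adjusted p = 0.752), against 0% of all tested genes, and edgeR and DESeq2 called 0 of 10. An unadjusted p under 0.05 was reached by 0 of 10, against 5.03% of all tested genes. The interaction was above 0 for 9 genes, all but Vegfc. It was largest for Kdr at 0.42 (95% interval -0.08 to 0.92) and Flt1 at 0.41 (-0.23 to 1.04), with Flt4 at 0.33, Nrp1 at 0.29, Pgf at 0.27 and Nrp2 at 0.23. The median of 0.25 over the 10 genes compares with 0.00 over all tested genes. That median was 0.08, with 6 genes above 0, with reads scaled without Gm42418 and mitochondrial genes, which moved the median of all tested genes to -0.16. It was 0.03 without the 4 libraries high in Gm42418, with 6 genes above 0. With the animal ID range as a term it was 0.03, with 7 above 0. The interaction was also above 0 for 12 of 14 endothelial and 8 of 8 smooth muscle markers, at medians of 0.22 and 0.44 with none passing. It was above 0 for 5 of 6 pericyte and 8 of 8 pancreatic acinar markers too, at medians of 0.43 and 1.48 with none passing. The part of these markers in the result was not tested.

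The second comparison set 3 months against 16 days within each genotype. In ieET-1 arteries 1 of the 10 genes passed, Nrp2, a share not far from the 8.66% of all tested genes that passed there. Nrp2 averaged 59.6 ± 8.47 at the long term and 39.6 ± 6.47 at the short term (SD, n = 6 each). The log2 difference was 0.58 (limma, SE 0.16, 95% interval 0.25 to 0.90, adjusted p = 0.0237). Of the 6 long-term mice, 5 lay above every short-term mouse, and the ranges of 47.2 to 70.8 and 32.4 to 49.4 overlapped through mouse 8134 at the long term and mouse 8987 at the short term. In this comparison 3 of the 10 genes had an unadjusted p under 0.05 (Nrp2, Kdr and Vegfd), against 25.6% of all tested genes. All 8 smooth muscle, all 6 pericyte and all 8 pancreatic acinar markers were likewise higher at the long term. Their medians were 0.35, 0.16 and 2.53, with none passing. Of the endothelial markers 8 were higher and 6 lower, at a median of 0.02. The part of these markers in the result was not tested. The call held under each of the 12 other settings, with adjusted p between 0.00971 and 0.0487. Among the long-term mice 8135 and 8136, which are 2 of the libraries high in Gm42418, had Nrp2 values of 70.8 and 63.2, and without the 4 such libraries the difference was 0.49 (adjusted p = 0.041). It was lost when any one of 5 mice was left out: without mouse 257 the adjusted p was 0.0527, without 258 it was 0.0552, without 8991 it was 0.0523, without 8135 it was 0.0557 and without 8136 it was 0.0515. The difference without one of them lay between 0.52 and 0.56.

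Kdr had nearly as large a difference over time in ieET-1 arteries, with 57.9 ± 10.2 at the long term and 39.7 ± 7.17 at the short term (SD, n = 6 each). The log2 difference was 0.53 (limma, SE 0.17, 95% interval 0.18 to 0.89) and the adjusted p of 0.0543 missed the threshold. Here too 5 of 6 long-term mice lay above every short-term mouse, the exception being mouse 9489 at 40.3. Kdr passed under DESeq2 (adjusted p = 0.0322), in a fit of the 2 groups alone (0.0435) and with library weights (0.0401). It also passed without mouse 8987 (0.0371) and without mouse 9489 (0.0218), and over the 12 other settings its adjusted p ran from 0.0148 to 0.194. The lowest came with the animal ID range as a term, which cannot take the range out of a time difference, since no range holds mice of both times.

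The other 8 genes did not pass in ieET-1 arteries. Flt4 differed by 0.34 (95% interval -0.16 to 0.84), Pgf by 0.23 (-0.06 to 0.51), Vegfb by 0.21 (-0.16 to 0.58), Flt1 by 0.15 (-0.30 to 0.61) and Nrp1 by 0.12 (-0.19 to 0.43). Vegfc and Vegfa were near 0, at 0.01 and -0.08. The median over the 10 genes was 0.18, with 8 higher, beside 0.01 over all tested genes. With reads scaled without Gm42418 and mitochondrial genes the median of the 10 was 0.04, with 5 higher, and that of all genes was -0.13.

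In ieCre arteries none of the 10 genes passed (limma, 0 of 10; lowest adjusted p = 0.0901, for Vegfd), against 3.3% of all tested genes. An unadjusted p under 0.05 was reached by 2 genes, Vegfd and Nrp2, against 17.9% of all tested genes. Of the 10 genes edgeR called 0 and DESeq2 called 1, Vegfd. Nrp2 averaged 50.8 ± 6.63 at the long term and 41.3 ± 14.7 at the short term in ieCre arteries (SD, n = 6 each), and the log2 difference was 0.35 (limma, SE 0.16, adjusted p = 0.243, and 0.0287 to 0.397 under the 12 other settings). All 6 long-term values lay above the short-term median, and 1 short-term mouse, 9955 at 68.3, lay above them all. That mouse is the library with the most reads on Gm42418, and without it the difference was 0.50 (adjusted p = 0.0428). Kdr differed by 0.11 in ieCre arteries (95% interval -0.24 to 0.47), Vegfa by -0.24 (-0.49 to 0.02) and Nrp1 by -0.17 (-0.48 to 0.14). Nrp2 had a positive and Vegfd a negative difference in both genotypes. Whether the time difference was another one in ieET-1 than in ieCre arteries is the interaction above, which did not pass for Nrp2 (0.23, adjusted p = 0.770) or Kdr (0.42, adjusted p = 0.752).

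**Figure D3:**
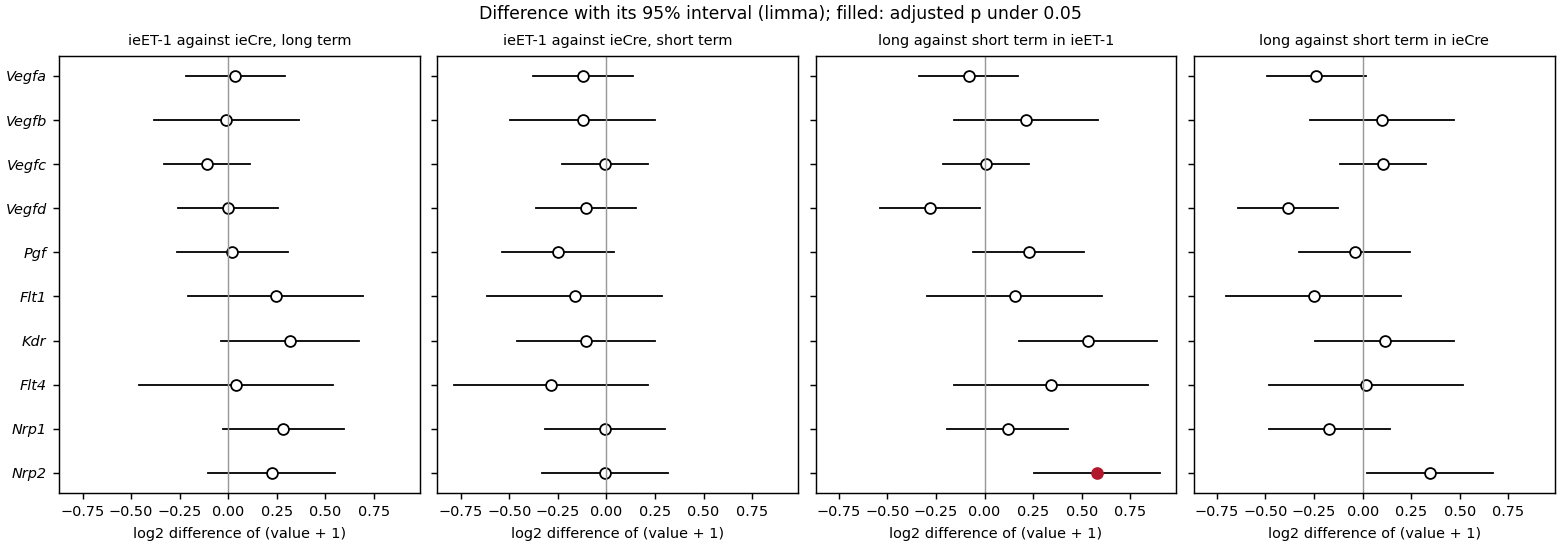
Log2 difference of (value + 1) with its 95% interval (horizontal axis) for the 10 genes in ieET-1 against ieCre at the long and the short term and in long against short term within ieET-1 and ieCre. The filled point, Nrp2 at 0.58 in ieET-1 arteries over time, is the 1 difference with an adjusted p under 0.05.

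The stretches upstream of Nrp2, Kdr and Flt1 are shown because Nrp2 and Kdr had the largest differences over time in ieET-1 arteries among the 10 genes and Flt1 is the other VEGFA receptor gene. Each is 200 bases from RefSeq (GRCm38.p6), from 250 to 51 bases before the annotated start and read 5′ to 3′ on the gene's strand, and capitals mark the GC box, GGGCGG on either strand.
Nrp2: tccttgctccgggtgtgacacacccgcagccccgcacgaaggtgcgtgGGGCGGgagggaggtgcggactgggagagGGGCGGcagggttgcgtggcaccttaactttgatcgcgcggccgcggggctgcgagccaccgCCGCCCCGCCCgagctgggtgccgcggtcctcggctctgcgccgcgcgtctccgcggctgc
Kdr: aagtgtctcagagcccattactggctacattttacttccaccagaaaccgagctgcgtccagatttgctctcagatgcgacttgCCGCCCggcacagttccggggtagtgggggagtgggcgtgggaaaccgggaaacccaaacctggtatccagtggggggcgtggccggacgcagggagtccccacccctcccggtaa
Flt1: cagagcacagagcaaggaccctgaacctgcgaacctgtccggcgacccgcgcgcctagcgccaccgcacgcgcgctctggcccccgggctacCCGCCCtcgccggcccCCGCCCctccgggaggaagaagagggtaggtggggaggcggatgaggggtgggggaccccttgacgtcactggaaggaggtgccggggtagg
The Nrp2 window (chr1:62703067-62703266, plus strand) held 4 GC boxes, of which a pair overlaps. The Kdr window (chr5:75978506-75978705, minus strand) held 1 and the Flt1 window (chr5:147726062-147726261, minus strand) 2. Windows not shown held GC boxes as well. That of Vegfb had 4, at 74.0% G and C, that of Vegfc 2 and those of Nrp1 and Flt4 1 each. The windows of Vegfa had 2 and 1, and those of Pgf and Vegfd had 0. At least 1 GC box was present in 24.6% of the 32841 promoter windows of this length. All 3 windows shown were richer in G and C than the median window, at 75.5% for Nrp2, 61.0% for Kdr and 73.0% for Flt1 against 51.5%. No TATAAA was found in any of the 3 windows shown, a motif present in 9.14% of windows. Among the other VEGF system genes only the window of Vegfd held it.

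Within a group, several of the 10 genes divided by animal ID. The IDs fall into ranges: 80xx to 81xx and 94xx at the long term, and 4-digit and 1- to 3-digit IDs at the short term. What an ID range stands for is not stated in the labels, and no range holds mice of both times, so time and ID range cannot be told apart. Nrp1 was higher without overlap in the first range of each pair in all 4 groups, as were 1.43% of all tested genes. It averaged 214 in mice 80xx to 81xx and 153 in mice 94xx of ieET-1 long term, and 214 against 134 in ieCre long term. In short-term arteries Nrp1 averaged 198 in 4-digit and 156 in 1- to 3-digit ieET-1 mice, and 195 against 146 in ieCre mice.

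Kdr followed the ranges in 3 of the 4 groups without overlap. Its mean was 63.1 in 80xx to 81xx and 47.7 in 94xx ieET-1 mice, 61.6 against 39.5 in ieCre mice, and at the short term 49.2 in 4-digit and 32.1 in 1- to 3-digit ieCre mice. In ieET-1 short-term arteries the ranges overlapped, at means of 44.4 and 35.0. Flt1 and Flt4 were higher without overlap in ieCre mice at both times, with Flt4 at 106 against 61.3 at the long term and 92.5 against 46.8 at the short term. In the ieCre groups 8 of the 10 genes at the long term and 6 of the 10 at the short term were higher without overlap in the first range, against 25.2% and 19.7% of all tested genes. In the ieET-1 groups the counts were 3 of 10 and 1 of 10, against 9.75% and 9.5%. Endothelial markers moved along: their mean log2 value was 7.11 in 80xx to 81xx and 6.80 in 94xx mice, and 7.16 in 4-digit and 6.85 in 1- to 3-digit mice. Smooth muscle markers did so too, at 9.97 in 80xx to 81xx and 9.67 in 94xx mice, and at 9.83 in 4-digit and 9.58 in 1- to 3-digit mice. Schwann and nerve markers averaged 4.70 and 4.15 in the long-term ranges, and 4.82 and 4.23 in the short-term ranges, in the same order. Macrophage markers ran the other way, at 6.10 in 80xx to 81xx and 6.68 in 94xx mice, and at 5.97 in 4-digit and 6.30 in 1- to 3-digit mice. The part of these markers in the differences by range was not tested.

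**Figure D4:**
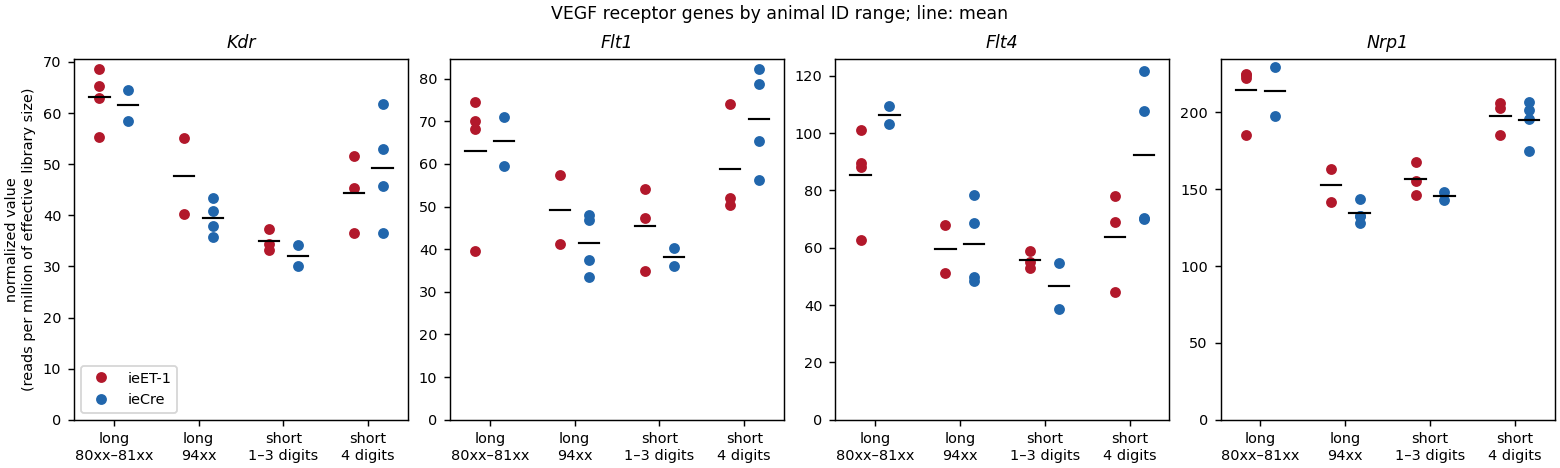
Normalized value (vertical axis, scaled reads, starting at 0) of Kdr, Flt1, Flt4 and Nrp1 by animal ID range, with ieET-1 in red and ieCre in blue. Points are mice and lines are means. The Nrp1 ranges do not overlap within either genotype at either time, and both genotypes average 214 in mice 80xx to 81xx.

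The ranges were unevenly spread over the genotypes, since 4 of 6 ieET-1 but 2 of 6 ieCre long-term mice were 80xx to 81xx. Kdr averaged 63.1 in ieET-1 and 61.6 in ieCre mice within 80xx to 81xx, and 47.7 against 39.5 within 94xx. Flt1 averaged 63.1 in ieET-1 against 65.3 in ieCre mice within 80xx to 81xx, and 49.3 against 41.4 within 94xx. Nrp1 averaged 214 in both genotypes within 80xx to 81xx, and 153 in ieET-1 against 134 in ieCre mice within 94xx. Vegfa was lower in ieET-1 within both ranges, at 67.7 against 68.6 and at 55.9 against 59.0. Each range holds 2 to 4 mice a group, and with the ID range as a term none of the 10 genes passed between genotypes at either time (limma, 0 of 10 each). In short-term arteries Pgf was lower in ieET-1 within both ranges, at 10.9 against 12.96 in 4-digit and 10.1 against 12.0 in 1- to 3-digit mice.

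Nrp2 was divided by ID range in 1 of the 4 groups. In ieET-1 long-term arteries its mean was 59.0 in 80xx to 81xx and 60.8 in 94xx mice. In ieET-1 short-term arteries it was 42.5 in 4-digit and 36.8 in 1- to 3-digit mice, with overlap. In ieCre arteries it was 55.7 against 48.4 at the long term with overlap, and 47.1 in 4-digit against 29.5 in 1- to 3-digit mice at the short term without overlap.

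Ratios were also taken within a library, as differences of log2(value + 1), which depend on the library's scaling through the added 1, most for low genes such as Vegfb. Of 36 ratio tests (9 ratios in 4 comparisons, exact permutation over the 924 ways to divide 12 libraries, two-sided), 9 had a p under 0.05 and none passed the Benjamini-Hochberg adjustment over the 36. The log2 ratio of Flt1 over Kdr averaged 0.06 ± 0.13 in ieCre long-term and 0.43 ± 0.23 in ieCre short-term arteries (SD, n = 6 each). These groups did not overlap, and the difference of -0.37 had the smallest p the test can give (exact permutation p = 0.00216, adjusted p = 0.0519). In ieET-1 arteries the same ratio averaged -0.01 ± 0.37 at the long term and 0.37 ± 0.27 at the short term, a difference of -0.38 with overlap (exact permutation p = 0.0584, adjusted p = 0.198). Without the long-term mouse 8134 it was -0.24 (exact permutation adjusted p = 0.336). These ratios are not corrected for length.

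Set against the mean of the 14 endothelial markers, Kdr was higher at the long term in ieET-1 arteries by 0.50 on the log2 scale (exact permutation p = 0.00433, adjusted p = 0.0519) and in ieCre arteries by 0.29 (p = 0.013, adjusted p = 0.0935, exact permutation). Nrp2 was higher in the same way, by 0.55 in ieET-1 (exact permutation p = 0.00433, adjusted p = 0.0519) and 0.52 in ieCre arteries (exact permutation p = 0.0108, adjusted p = 0.0935). Flt1 and Nrp1 over the same markers differed by 0.12 and 0.09 in ieET-1 and by -0.08 and 0.00 in ieCre arteries. The endothelial markers themselves differed over time by 0.03 in ieET-1 and -0.18 in ieCre arteries on average. They did not move together. At the long term 8 were higher and 6 lower in ieET-1 arteries, and 5 were higher and 9 lower in ieCre arteries. Among them Cldn5 passed as higher in ieET-1 and Vwf as lower in ieCre arteries. Without mouse 8152 the ieET-1 ratios of Kdr and Nrp2 passed (exact permutation adjusted p = 0.026 for each), and without mouse 9955 the 3 ieCre ratios of Flt1 over Kdr, Kdr over endothelial markers and Nrp2 over endothelial markers passed (adjusted p = 0.039, 0.0468 and 0.039). In short-term arteries Nrp1 over endothelial markers was higher by 0.14 in ieET-1 mice (exact permutation p = 0.0325, adjusted p = 0.165), and passed without mouse 256 (0.19, adjusted p = 0.039).

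**Figure D5:**
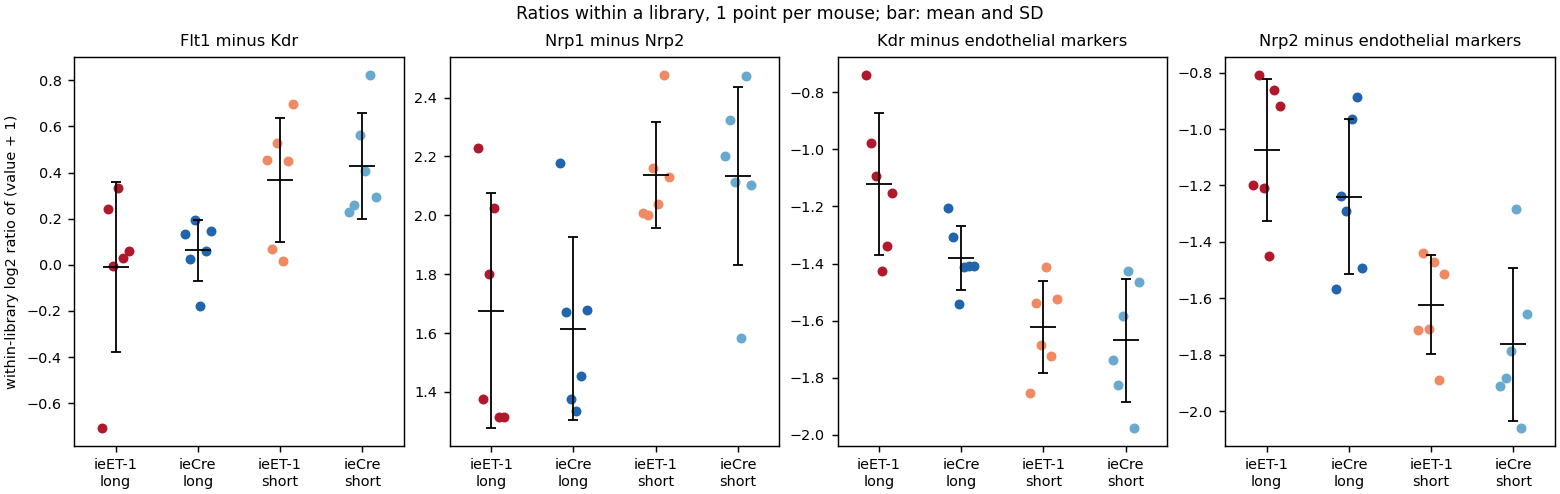
Log2 ratio of (value + 1) within a library (vertical axis) for Flt1 over Kdr, Nrp1 over Nrp2, Kdr over endothelial markers and Nrp2 over endothelial markers in ieET-1 long term, ieCre long term, ieET-1 short term and ieCre short term. Points are mice, and bars are the mean and SD of 6 mice. The Flt1 over Kdr ratio is lower at the long term in both genotypes, without overlap in ieCre arteries.

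The log2 ratio of Nrp1 over Nrp2 averaged 1.68 ± 0.40 at the long term and 2.14 ± 0.18 at the short term in ieET-1 arteries, and 1.61 ± 0.31 at the long term and 2.13 ± 0.30 at the short term in ieCre arteries (SD, n = 6 each). The differences of -0.46 and -0.52 did not pass (exact permutation adjusted p = 0.165 and 0.156). For Flt4 over the lymphatic markers the differences over time were 0.23 in ieET-1 and -0.26 in ieCre arteries, with overlap in both. Ccl21a, one of the 6 lymphatic markers, was at 0 in 4 of 6 ieET-1 and 5 of 6 ieCre libraries at the long term and in all 12 short-term libraries, and the summed lymphatic level ran from 736 to 1199 in ieET-1 long-term, 938 to 1219 in ieCre long-term, 779 to 1240 in ieET-1 short-term and 696 to 1021 in ieCre short-term arteries.

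Other tissue markers also moved with time. The fibroblast list summed to between 7284 and 12749.9 in ieET-1 and 7312 and 14665 in ieCre mice at the long term, and to between 13034 and 17097 in ieET-1 and 14405 and 18359.9 in ieCre mice at the short term, with all 8 genes lower at the long term in both genotypes and the collagen genes Col1a1, Col1a2 and Col3a1 passing in both. The mean of 8 adipocyte markers was higher at the long term by 0.55 in ieET-1 and 0.62 in ieCre arteries on the log2 scale, with Cidec and Lep passing in both. In ieET-1 arteries Plin1 also passed as higher and Cfd, another of the 8, as lower. Pancreatic acinar markers summed to between 1347 and 58148 in ieET-1 and 398 and 29104 in ieCre mice at the long term. At the short term they summed to between 917 and 17783 in ieET-1 and 93.8 and 26519.96 in ieCre mice. All 8 were higher at the long term in both genotypes, by a median of 2.53 in ieET-1 and 1.02 in ieCre arteries. Between genotypes all 8 were higher in ieET-1 arteries at the long term (median 1.17) and lower at the short term (median -0.37). None of the 8 passed in these comparisons. In short-term arteries the 5 adrenal cortex markers were all lower in ieET-1 arteries and all passed, with sums of 2.68 to 73.0 in ieET-1 and 32.7 to 563 in ieCre arteries. Cyp11b1, Cyp21a1 and Hsd3b1 were each at 0 in 1 ieET-1 short-term library. The part of these lists in the differences of the VEGF system genes was not tested.

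Across the 24 libraries, after the mean of each group was taken off, the receptor genes varied together. Pearson's r, given as a description over libraries that share depth, dissection and ID range, was 0.88 for Flt1 with Flt4, 0.87 for Kdr with Flt4 and 0.84 for Kdr with Nrp1. It was lowest for Pgf with Nrp2, at -0.16. Vegfd varied most like Pgf among the set (r = 0.72), and Vegfa like Flt4 (0.81) and Flt1 (0.78). The 14 endothelial markers had a median r of 0.73 with Flt1 and 0.74 with Flt4, against 0.60 with Kdr and 0.48 with Nrp2. Single endothelial markers ran from -0.54 to 0.96 with Flt1, -0.49 to 0.92 with Flt4, -0.30 to 0.80 with Kdr and -0.17 to 0.65 with Nrp2. Markers of other cell types reached like values, with a median r for smooth muscle of 0.68 with Flt1 and 0.65 with Flt4, and for Schwann and nerve of 0.62 with Kdr and 0.51 with Nrp2. Macrophage markers ran the other way, with a negative median r over 6 genes for every member of the set. It was -0.87 with Flt4, -0.74 with Flt1 and -0.73 with Kdr, and weakest with Vegfd at -0.40.

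The 3 genes most like each member, among 12292 genes with a mean value of at least 2, were as follows over the same 24 libraries. For Flt1 they were Stk10, the endothelial marker Vwf and Abca3 (r of 0.95 to 0.96). For Flt4 they were Ece1, which encodes an enzyme that releases active endothelin-1, Ptpn14 and Itgb4 (0.93 to 0.94). Nrp1 was most like Cd93, Copg1 and Gemin5 (0.93 to 0.94), and Kdr was most like the lymphatic marker Reln (0.92), Epb41l4a and Vwa8 (0.88 each). The 5 tested lymphatic markers as a list had a median r of 0.29 with Kdr, from -0.48 to 0.92. With Flt4, the lymphatic receptor gene, their median r was 0.08, from -0.62 to 0.86. Nrp2 had lower values, with Acsf2 at 0.85, Pcdh17 at 0.82 and Dock5 at 0.80.

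Among ligand genes, Vegfa was most like the adenylyl cyclase gene Adcy6 (0.90), Stab1 and Hdgfl2 (0.88 each). Vegfb was most like Nectin1, Yap1 and Hnrnpul2 (0.87 to 0.88). Vegfc was most like Tmtc1, Drd1 and Hey2 (0.82 to 0.84), the last a Notch target gene of arteries. Vegfd was most like Fstl3, Elovl5 and Cilp (0.80 to 0.82), and Pgf was most like Thsd7b, the metalloproteinase inhibitor gene Timp3 and Hyal1 (0.82 to 0.84).

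Around the 10 genes, 7 lists of genes that make, release, transcribe or relay VEGF signals held 106 genes, of which 104 were tested. These lists were described by counts alone. Over time in ieET-1 arteries 7 rose and 6 fell, 12.5% against 8.66% of all tested genes. In ieCre arteries 1 rose and 5 fell, 5.77% against 3.3%. Between genotypes 1 of the 104 passed at each time (0.962%), Khdrbs3, against 0.00688% of all tested genes at the long term and 0.0825% at the short term, and none passed for the interaction. Khdrbs3 is named in the series title and was put on the lists with earlier results known. That share is therefore no result about the lists as a whole. Khdrbs3 encodes an RNA-binding splicing regulator. It averaged 87.2 ± 4.18 in ieET-1 and 54.2 ± 5.46 in ieCre arteries at the long term, and 81.9 ± 7.83 in ieET-1 and 47.6 ± 5.73 in ieCre arteries at the short term (SD, n = 6 each). The long-term call was lost with reads scaled without Gm42418 and mitochondrial genes (adjusted p = 0.271), while the difference of 0.68 stayed between 0.59 and 0.70 over the 12 other settings. Srsf1, which encodes another splicing factor, differed by 0.17 at the short term and did not pass (limma, adjusted p = 0.487).

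Ligand processing, matrix release and traps was the list with most calls, 5 of 12 tested genes (3 higher, 2 lower) in ieET-1 and 3 of 12 (all lower) in ieCre arteries over time, beside 8.66% and 3.3% of all tested genes. Sparc, which encodes a matrix protein that binds VEGF, fell by 1.03 in ieET-1 (limma, SE 0.16, adjusted p = 0.00034) and by 1.13 in ieCre arteries (adjusted p = 0.000171) on the log2 scale. Its values were 782 ± 232 at the long term and 1556 ± 174 at the short term in ieET-1 arteries (SD, n = 6 each). The proprotein convertase gene Pcsk5 fell by 0.54 in ieET-1 and 0.86 in ieCre arteries (adjusted p = 0.0116 and 0.000426). The calls of Sparc and Pcsk5 held under all 12 other settings and without any one mouse in both genotypes. Thbs1, which encodes an inhibitor of vessel growth, fell by 0.95 in ieCre arteries (adjusted p = 0.0236), a call that held in 10 of 12 other settings and 7 of 12 omissions of a mouse. Mmp9 rose by 1.29 in ieET-1 arteries (limma, adjusted p = 0.0395), a call that held in 10 of 12 other settings and 5 of 12 omissions. Ccbe1, which encodes a cofactor of VEGFC processing, rose by 0.47 (limma, adjusted p = 0.0383), which held in 6 of 12 other settings, with an adjusted p of up to 0.166, and in 6 of 12 omissions.

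Among semaphorins, plexins and neuropilin adaptors, 2 of 13 genes passed over time in ieET-1 and 0 of 13 in ieCre arteries, beside 8.66% and 3.3% of all tested genes. Gipc1, whose product binds the intracellular tail of neuropilins, rose by 0.40 in ieET-1 arteries (limma, SE 0.07, adjusted p = 0.000693), with 43.1 ± 3.36 at the long term and 32.3 ± 2.71 at the short term (SD, n = 6 each), and the 2 groups did not overlap. Sema3c, a neuropilin ligand gene, fell by 0.64 (limma, SE 0.15, adjusted p = 0.0109), with 154 ± 23.9 at the long term and 240 ± 20.2 at the short term. Both calls held without any one mouse. With reads scaled without Gm42418 and mitochondrial genes Gipc1 had an adjusted p of 0.0685, and without the 4 libraries high in Gm42418 Sema3c had one of 0.0618. Both calls held in the other 11 of 12 settings.

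The oxygen sensing and ligand transcription list had 2 of 11 genes passing over time in ieET-1 and 1 of 11 in ieCre arteries. The shares of all tested genes were 8.66% and 3.3%. Egln2, which encodes an oxygen-dependent prolyl hydroxylase, rose in both genotypes over time. It rose by 0.54 in ieET-1 (adjusted p = 0.000704) and by 0.35 in ieCre arteries (limma, adjusted p = 0.028). The ieCre call was lost on omission of any one of 6 of the 12 mice. The other gene called in ieET-1 arteries, Esrra, rose by 0.36 (limma, adjusted p = 0.0427). Its call held in 6 of 12 other settings and 4 of 12 omissions of a mouse. Hif1a, the oxygen-regulated factor of VEGF transcription, did not pass in any comparison. Of 11 genes of Vegfa RNA splicing, stability and translation, 1 passed over time in each genotype, beside the same shares of all tested genes. The splicing factor gene Srsf6 fell by 0.30 in ieET-1 and 0.34 in ieCre arteries (limma, adjusted p = 0.0284 in ieET-1 and 0.0283 in ieCre). These calls held in 8 and 5 of 12 omissions of a mouse. Of 15 endothelial genes induced by VEGF signalling, 1 passed over time in each genotype, beside the same shares of all tested genes. Esm1 fell in ieET-1 arteries, with a mean of 4.76 (1.90 to 10.3) at the long term and of 14.3 (4.69 to 21.5) at the short term (limma, log2 difference -1.39, SE 0.37, adjusted p = 0.0199). The Esm1 call was lost without mouse 258 or mouse 8136 and held in 9 of 12 other settings, with an adjusted p of up to 0.146. Adamts9 fell by 0.64 in ieCre arteries (limma, adjusted p = 0.0159). Of 29 signalling genes 1 passed as higher and 1 as lower in ieET-1 and 0 in ieCre arteries, beside the same shares. The kinase genes Map2k1 rose by 0.30 and Yes1 fell by 0.32 in ieET-1 arteries (limma, adjusted p = 0.0276 and 0.026), held in 8 and 6 of 12 omissions. The Map2k1 call held in 9 of 12 other settings, over which its difference was as low as 0.14 with an adjusted p of up to 0.40, and that of Yes1 held in 10 of 12. No receptor transcription factor gene of the 13 tested passed in any comparison.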

How the data were processed

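The deposited table holds normalized signal values, 1 per gene and mouse, and the step of the authors that made them was read from the values: each is a read count multiplied by 1 factor for its library. The submitters' processing notes name edgeR 3.6.8, R 3.2.3, STAR 2.3.1, bcl2fastq 1.8.4 and FastQC, with no role for each. Which genome build, annotation and counting tool were used is not given in the sources used here. Libraries were stranded and depleted of ribosomal RNA, per the labels' protocols. All 24 value columns were matched to samples by animal ID, and 1 row named ID (at most 0.0994% of a library) was left out. Symbols and exon lengths came from GENCODE M21 (GRCm38), which named 97.9% of the 29020 gene rows.

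All 482036 values above 0 were whole multiples of the worth of 1 read (tolerance 0.001), so reads were recovered. A floor of 3 reads is a value of 0.177 to 0.461 and covers counting error only. No pair of libraries of a group agreed within sampling noise (chi-square per degree of freedom at least 13.1 over 60 pairs). Genes that reached a value of 1 in 6 or more libraries were tested with limma 3.58.1 in R 4.3.3, with a variance trend, on log2(value + 1), which understates changes of low genes. The 24 libraries entered 1 model of 4 groups, with 2-sided tests and Benjamini-Hochberg adjustment over all 14544 tested genes at 0.05. The script was tested on simulated data. Ratios within a library used exact permutation (Python 3.11.15, SciPy 1.17.1). Alternatives were other pseudocounts, filters and scalings, edgeR 4.0.16 and DESeq2 1.42.0 on recovered reads, the compared groups alone, library weights, the animal ID range as a term, leaving out the 4 libraries high in Gm42418, and leaving out each mouse. The same alternatives were run for the pathway genes after their values had been seen.

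Named were the 10 genes, the 3 genes most like each, and from each pathway list up to 4 genes with the smallest p in a comparison. The genes, lists and tests were chosen with earlier results of these data known.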

Additional observations from a re-analysis of the deposited data

Results flagged for a closer look

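Of the 40 sets of 6 values (10 genes in 4 groups), 1 held a value far from the others: Vegfd in ieCre short-term arteries, where mouse 9957 had a normalized value of 75.8 and the next highest mouse 56.3. The gap made up 0.719 of the range of the group, above the critical value of 0.625 for 6 values. Chance marks about 1 in 20 such sets.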

How the results depend on the processing

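No difference reversed its direction among those called. At the short term 12 of all tested genes passed between genotypes, against 1 with no filter, 7 with edgeR, 41 with DESeq2, 4 with the compared groups alone, 19 with the ID range, 55 with library weights, and 24 without the 4 libraries high in Gm42418. At the long term 1 passed, against 2 with no filter and 0 with reads scaled without Gm42418 and mitochondrial genes. For the interaction 0 passed (731 at an unadjusted p under 0.05, limma), against 0 with edgeR, 6 with DESeq2 and 1 without the 4 libraries. Over time in ieCre arteries 480 passed, against 316 with no filter, 296 with scaled reads, 794 with DESeq2, 2220 with library weights and 266 without the 4 libraries. Of the 10 VEGF system genes 0 passed there, against 1 with DESeq2, 1 with library weights (Vegfd each) and 1 without the 4 libraries (Nrp2). Over time in ieET-1 arteries 1260 passed, against 1883 with scaled reads, 1898 with DESeq2 and 657 with the compared groups alone. There were 1643 with the ID range, 1153 with library weights and 603 without the 4 libraries. Of the 10 genes 1 passed there, against 2 with scaled reads (Nrp2 and Vegfd) and 2 each with DESeq2, the compared groups alone, the ID range and library weights (Nrp2 and Kdr). The split of calls in ieET-1 arteries was 767 higher and 493 lower, against 563 and 600 with quantile normalization and 300 and 1583 with scaled reads. Leaving out 1 mouse gave 1 to 21 genes at the short term and 1 each time at the long term, 272 to 592 over time in ieCre and 698 to 1566 in ieET-1 arteries. It gave 0 to 1 of the 10 genes over time in ieCre and 0 to 2 in ieET-1 arteries, and 0 to 5 of the ratios. The causes of these changes were not tested. No paired analysis was possible because the labels number mice by animal ID and no ID occurs in 2 groups. Vegfb had 48 to 100 reads a library, so depth limits its values most.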
